A study of Mus musculus with 11 samples.

Results

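The first assembled 2 Mb beside the centromere of each mouse autosome were examined in 11 ChIP-Seq libraries of the histone variants MacroH2A2 and H3.3. They were cut into 100 kb tiles from base 3000001 to base 5000000 of chromosomes 1 to 19 in the mm9 build, which gave 380 tiles of the 24731 tiles on these chromosomes. Tiles were assigned by position alone, in a region that was picked with earlier results of these data known. The top 1% of tiles by HA signal without Dox were discarded, following the rule of the study, and this took 17 of the 380 tiles and 251 of the 24351 remaining tiles. Tiles with 0 no-Dox intervals were also left out. The other 363 member tiles were kept and compared with 23390 kept remaining tiles. The lowest discarded member tile held 636 distinct no-Dox intervals, the highest kept one held 627, and the median kept remaining tile held 464.

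All cells are labelled with a 129 X C57bl/6 background. The ES cells derived from the KH2 line, which expresses M2rtTA, a Dox-dependent transactivator, from the ROSA26 locus, and carried HA-tagged H3.3 or HA-tagged MacroH2A2 under TetO beside Col1a1. Anti-HA ChIP (antibody ab9110) was carried out for HA-H3.3 ES cells after 3 h and 6 h with Dox at 2 μg/ml, and for HA-MacroH2A2 ES cells without Dox and after 3 h, 6 h and 12 h. HA-Macro MEFs came from chimeric embryos made with the HA-MacroH2A2 ES cells, were selected with puromycin and were profiled at passage 2 after 3 h, 6 h and 12 h with Dox. Antibody ab4173 mapped total MacroH2A2 in ES cells labelled as parental KH2 and in MEFs labelled as wild type, whereas the study describes its anti-MacroH2A2 maps as made in the HA-Macro cells. The sources thus differ on the transgene and on the Dox state of these libraries, and only antibody and cell type are used. Each condition had 1 library, and each anti-MacroH2A2 library is labelled as 2 replicates combined, so that no condition had replicates. The 3 HA-Macro ES and 3 MEF libraries after Dox are time points and not independent replicates. The study split ES cells onto plates induced at different time points and handled MEFs similarly. An exact permutation test of 3 against 3 libraries also cannot give a two-sided p below 0.10, and 3 pairs matched by time cannot go below 0.25. No p is given, and every interval is a 95% interval for counting error only. The no-Dox library is the background measured with the same HA antibody.

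Mouse autosomes are telocentric, so that their assembled sequence starts beside long arrays of satellite repeats that form constitutive heterochromatin and are largely missing from the assembly. MacroH2A carries a large macro domain and is known from the inactive X chromosome and other repressed chromatin, and it is depleted from many transcribed genes. H3.3 is deposited independently of replication at active promoters and also at pericentric and telomeric repeats.

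The kept member tiles were richer in genes and poorer in unique sequence than the rest of the autosomes. They held 678 annotated transcription start sites (TSSs), 429 of them of protein-coding genes, which is 1.87 TSSs per tile against 1.41 in the remaining tiles. No TSS lay in 32.2% of member tiles and in 43.0% of remaining tiles. Mean GC content was nearly the same, at 42.0% and 41.9%. The unique share of a tile, which is the percentage of sampled 32-base words that occur once in the assembly, had a median of 82.5% in member tiles and 88.8% in the rest. It was under 20% in 25 member tiles, or 6.89%, against 1.61% of remaining tiles.

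Repeated sequence of 2 kinds is shown here because the libraries differ most over it. The first 38285 bases of assembled chromosome 9, from base 3000140 to base 3038424, repeat with a period of 234 bases, the unit length of the mouse major satellite. The 3 neighbouring units that match each other best are printed from the plus strand, at chr9:3027538-3027771, chr9:3027772-3028005 and chr9:3028006-3028239. Capitals in units 2 and 3 mark bases that differ from unit 1, 5 in unit 2 and 15 in unit 3.
chr9 unit 1: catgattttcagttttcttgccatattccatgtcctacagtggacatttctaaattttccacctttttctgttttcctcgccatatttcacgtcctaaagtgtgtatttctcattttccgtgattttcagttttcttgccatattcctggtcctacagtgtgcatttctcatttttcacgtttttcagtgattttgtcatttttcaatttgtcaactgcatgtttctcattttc
chr9 unit 2: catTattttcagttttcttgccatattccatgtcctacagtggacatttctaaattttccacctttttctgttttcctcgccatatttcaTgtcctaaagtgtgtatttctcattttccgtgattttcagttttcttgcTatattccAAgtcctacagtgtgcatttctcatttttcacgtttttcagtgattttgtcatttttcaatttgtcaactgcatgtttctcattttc
chr9 unit 3: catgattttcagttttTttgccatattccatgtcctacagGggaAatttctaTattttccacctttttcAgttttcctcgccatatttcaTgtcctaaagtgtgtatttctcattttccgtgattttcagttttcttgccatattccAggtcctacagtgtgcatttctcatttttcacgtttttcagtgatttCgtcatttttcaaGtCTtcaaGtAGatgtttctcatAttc
The second kind is the start of chromosome 14, where large segments with predicted genes occur several times on the same chromosome. A stretch of 60 bases at chr14:3450001-3450060, printed from the plus strand, was found at 8 places, all on chromosome 14 and the farthest at chr14:8309455-8309514. It lies in no annotated exon.
chr14 duplicated stretch: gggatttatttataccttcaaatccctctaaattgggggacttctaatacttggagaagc

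The libraries fall into 2 kinds by interval length. Nearly all intervals spanned 400 bp in HA-H3.3 and total MacroH2A2 libraries, against 150 bp in each HA-Macro library. Distinct intervals on chromosomes 1 to 19, X and Y, to which all values are scaled, numbered 6448310 to 14827620 in the former and 10512728 to 19869559 in the latter. The HA-Macro ES 3 h library stands apart in its share of intervals on chromosome Y, 0.112% against 0.0198% to 0.0244% in the other HA-Macro libraries, and results that rest on it are given beside those of the 6 h or 12 h library. Among the 400 bp libraries this share was 0.102% and 0.0673% in HA-H3.3 at 3 h and 6 h, and 0.100% in anti-MacroH2A2 ES against 0.0423% in anti-MacroH2A2 MEF. The part of these differences in the results was not tested.

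In tiles with a unique share under 20%, the 400 bp libraries held 0.0633 to 0.0859 of the mean level of remaining tiles, and the 150 bp libraries held 0.620 to 1.01. Low-unique tiles elsewhere in the genome gave 0.0788 to 0.0931 and 0.520 to 0.830. The low level over repeats thus went with the kind of library, outside the first 2 Mb as well as within them. Within the 150 bp libraries after Dox the level also differed by cell type, at 0.620 to 0.645 in MEFs and 0.842 to 0.881 in ES cells. The no-Dox ES library gave 1.01. Elsewhere in the genome the libraries after Dox gave 0.520 to 0.551 in MEFs and 0.736 to 0.746 in ES cells, and no Dox gave 0.830. On chromosome 14 the 17 kept tiles had a median unique share of 3.61%. Their level was 0.0437 of the rest of that chromosome in HA-H3.3 ES 3 h, 0.0377 in HA-H3.3 ES 6 h, 0.0503 in anti-MacroH2A2 ES and 0.0486 in anti-MacroH2A2 MEF. In the same tiles the level was 1.08 in HA-Macro ES no Dox, 0.981, 0.962 and 1.00 in HA-Macro ES at 3 h, 6 h and 12 h, and 0.735, 0.750 and 0.723 in HA-Macro MEF at 3 h, 6 h and 12 h. The tile at chr14:3400001-3500000, with the predicted genes Gm1973, Gm2963 and Gm8348, held 0 distinct intervals in all 400 bp libraries, where 3 intervals per library would be the limit that a count of 0 allows. It held 25.1 intervals per 1000000 (ppm) in the no-Dox library and 15.8 to 24.6 in the other HA-Macro libraries.

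**Figure D1:**
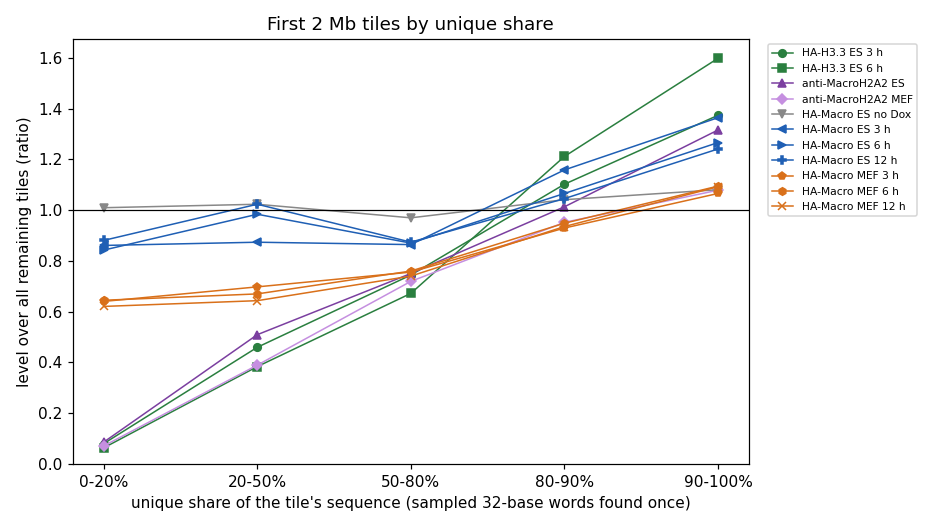
Level of the member tiles over the mean of all kept remaining tiles (ratio, from 0) by the unique share of the tile, 1 line per library. The 4 libraries with 400 bp intervals hold 0.0633 to 0.0859 in the least unique tiles, whereas the 7 HA-Macro libraries stay between 0.620 and 1.01.

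Over all kept member tiles, the level beside centromeres relative to the rest was lower in MEFs than in ES cells with both antibodies. The mean level of the first 2 Mb over the rest was 0.873 (0.870 to 0.877) in HA-Macro MEF 12 h, and 0.874 and 0.887 at 3 h and 6 h. In HA-Macro ES cells it was 1.08 (1.07 to 1.08) at 3 h, 1.03 at 6 h and 1.02 (1.02 to 1.02) at 12 h. The no-Dox background gave 1.02 (1.02 to 1.03), and its counting interval overlapped those of the ES libraries at 6 h and 12 h. Its own signal decided which tiles were discarded, so its value over kept tiles is not independent of that rule. Total MacroH2A2 was 0.911 (0.905 to 0.916) in ES cells and 0.822 (0.818 to 0.826) in MEFs. HA-H3.3 was 0.950 (0.944 to 0.956) at 3 h and 1.01 (1.00 to 1.01) at 6 h. With every tile included, also those with 0 no-Dox intervals, HA-Macro was above the rest in both cell types. It was 1.26, 1.22 and 1.21 in ES cells and 1.08, 1.09 and 1.01 in MEFs at 3 h, 6 h and 12 h. HA-H3.3 at 3 h was 1.03 and no Dox was 1.27. With the top 1% of tiles kept but tiles with 0 no-Dox intervals left out, HA-Macro MEF was 1.05, 1.06 and 0.981. HA-H3.3 at 3 h was then 1.00 (0.999 to 1.01). These means include the satellite tile chr9:3000001-3100000, at 2086, 2033 and 1171 ppm in HA-Macro MEF. The median HA-Macro MEF member tile stayed below that of the rest, at 32.4, 33.1 and 32.4 ppm against 35.4, 36.0 and 35.8. Matched by time, the log2 ratio of the HA-Macro MEF to the ES value was -0.30 at 3 h, -0.21 at 6 h and -0.22 at 12 h. Chromosome by chromosome, the first 2 Mb lay above the rest on 9, 8 and 10 of 19 chromosomes in HA-Macro ES at 3 h, 6 h and 12 h and on 3, 4 and 4 in HA-Macro MEF.

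The same comparison was made over the 206 member tiles with at least 80% unique sequence, against 18281 remaining tiles of that kind. There the levels were 1.10 and 1.20 for HA-H3.3 at 3 h and 6 h, 1.03 for anti-MacroH2A2 ES and 0.918 for anti-MacroH2A2 MEF. They were 1.04 for no Dox, 1.16, 1.08 and 1.06 for HA-Macro ES at 3 h, 6 h and 12 h, and 0.918, 0.937 and 0.924 for HA-Macro MEF at 3 h, 6 h and 12 h. The anti-MacroH2A2 level in ES cells and the HA-H3.3 level at 3 h thus lay below the rest over all kept tiles and above it over unique tiles, whereas all 4 MEF libraries lay below it in both. The pooled values hide a spread between chromosomes. In unique tiles only 6 of 18 chromosomes lay above the rest in anti-MacroH2A2 ES, with a median of 0.900 and the highest value of 1.39 on chromosome 19, and 6 of 18 in HA-H3.3 3 h, with a median of 0.912 and the highest value of 1.57 on chromosome 7. HA-Macro lay above the rest on 7, 7 and 6 of 18 chromosomes in ES cells at 3 h, 6 h and 12 h, with medians of 0.974, 0.935 and 0.933, and on 5 of 18 at each time in MEFs, with medians of 0.891, 0.911 and 0.908. Anti-MacroH2A2 MEF lay above the rest on 5 of 18 chromosomes, with a median of 0.909, which is not below the 0.900 of anti-MacroH2A2 ES. Over unique tiles the cell types were thus closer by this tally than by the pooled values. Tiles from 5 to 7 Mb gave 0.967 in anti-MacroH2A2 MEF and 0.980 in HA-Macro MEF 12 h under the same limit, and the last 2 Mb of the chromosomes gave 1.02 and 1.01. Over all kept tiles, those from 5 to 7 Mb gave 0.906 and 0.958, nearer to the rest than the first 2 Mb, but 0.914 in anti-MacroH2A2 ES, close to the 0.911 of the first 2 Mb.

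**Figure D2:**
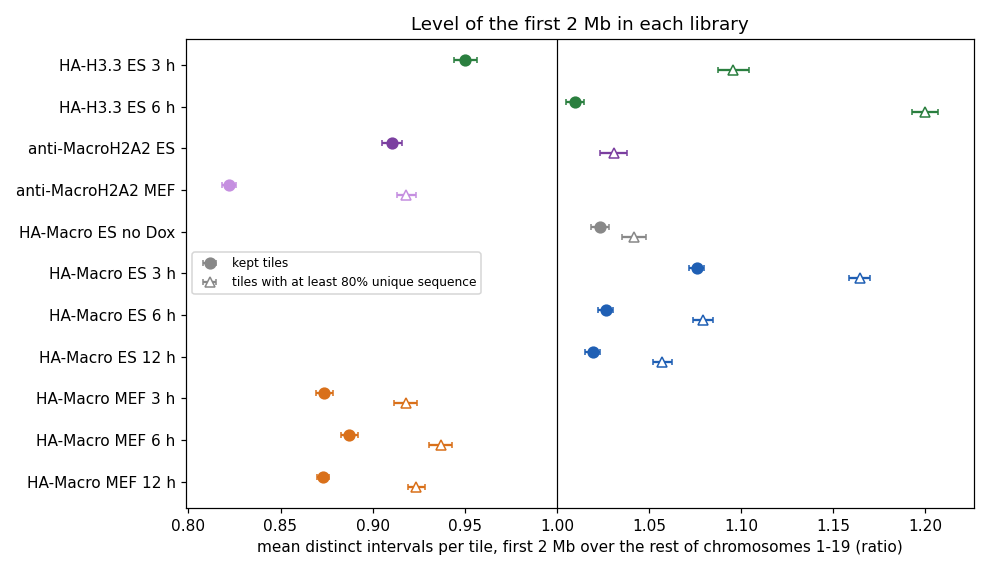
Mean distinct intervals per tile in the first 2 Mb over the remaining tiles of chromosomes 1 to 19 (ratio) for each library, with 95% counting intervals as bars. Filled circles are the kept tiles and open triangles those with at least 80% unique sequence. The 4 MEF libraries lie at 0.822 to 0.887 in kept tiles and at 0.918 to 0.937 in unique tiles, below 1 in both.

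The level was higher with each step away from the first assembled base in all MEF libraries and in 3 of the ES libraries. Over 4 blocks of 0.5 Mb, anti-MacroH2A2 MEF held 0.654, 0.807, 0.877 and 0.932 of the rest, and HA-Macro MEF 12 h held 0.773, 0.836, 0.902 and 0.971. The same order was seen in anti-MacroH2A2 ES, at 0.773, 0.892, 0.952 and 1.01, in HA-H3.3 3 h, at 0.834, 0.930, 0.954 and 1.07, and in HA-H3.3 6 h, at 0.905, 0.951, 0.982 and 1.19. HA-Macro ES 12 h held 1.02, 0.987, 1.02 and 1.06, with no such order. In tiles with at least 80% unique sequence, anti-MacroH2A2 MEF held 0.835, 0.892, 0.937 and 0.971, and HA-Macro MEF 12 h held 0.835, 0.872, 0.960 and 0.984. Anti-MacroH2A2 ES held 0.986, 1.00, 1.03 and 1.08 there, and no Dox held 1.01, 1.04, 1.04 and 1.06, higher with each step as well. HA-H3.3 6 h held 1.29, 1.12, 1.09 and 1.30, without that order. The order in MEFs was therefore also present where repeats are few, at a smaller size. The unique share was higher in the blocks farther from the centromere, with 37 unique tiles in the first and 65 in the last.

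**Figure D3:**
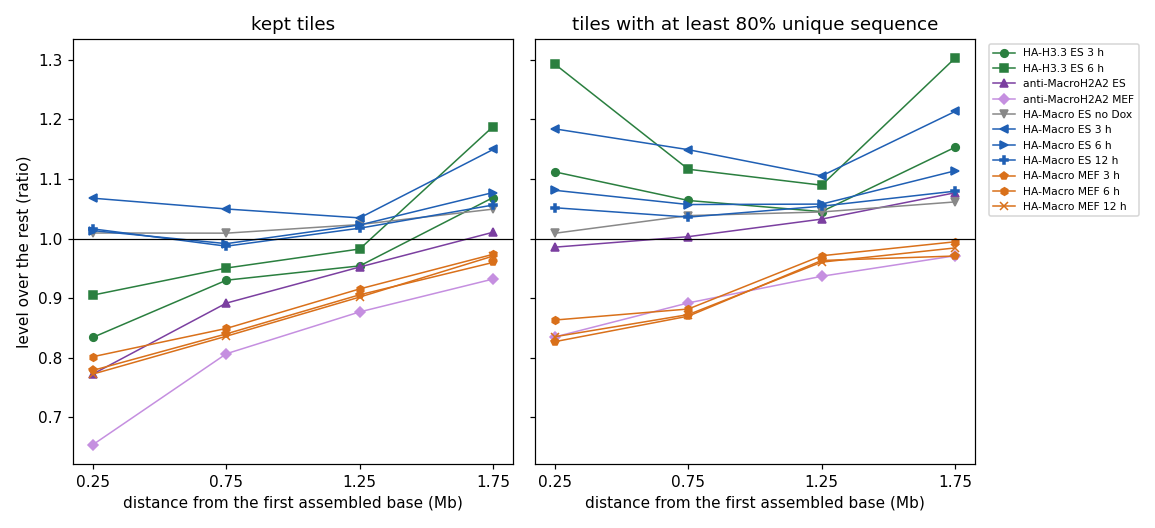
Level over the rest (ratio) in 4 blocks of 0.5 Mb by distance from the first assembled base, for kept tiles (left) and tiles with at least 80% unique sequence (right), 1 line per library. MEF libraries run from 0.654 to 0.802 in the first block to 0.932 to 0.974 in the last on the left, and from 0.827 to 0.863 to between 0.971 and 0.995 on the right.

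The MEF values differed with both gene content and unique share. Over all 117 kept member tiles with no TSS, anti-MacroH2A2 MEF held 0.840 of the level of such tiles elsewhere and HA-Macro MEF 12 h held 0.889. Among tiles with at least 80% unique sequence, the 48 member tiles with no TSS held 0.953 of the level of their like elsewhere in anti-MacroH2A2 MEF and 0.981 in HA-Macro MEF 12 h. The 86 member tiles with 1 or 2 TSSs held 0.871 (0.863 to 0.878) and 0.852 (0.845 to 0.858). The 72 tiles with 3 or more TSSs held 0.930 and 0.921. In ES cells the same 3 classes gave 0.972, 0.944 and 1.00 for anti-MacroH2A2 and 0.994, 0.959 and 1.02 for HA-Macro at 12 h. HA-H3.3 at 6 h gave 0.994, 0.996 and 1.08, each below its 1.20 over all unique tiles. Tiles with 3 or more TSSs made up 72 of 206 unique member tiles and 3621 of 18281 unique remaining tiles.

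Ratios of MEF over ES cells compare shares of a library. The study reports more MacroH2A2 in MEFs than in ES cells, so a negative ratio need not be an absolute loss. Tile by tile, the log2 ratio of MEF over ES cells at 12 h of HA-Macro had a median of -0.35 over 363 member tiles and -0.08 over all 23748 tiles. It was lower by 1.5-fold or more in 80 member tiles (22.0%), against 9.75% of all tiles, and higher in 17 (4.68%) against 11.4%. In unique tiles 35 of 206 (17.0%) were lower against 8.9%. At 3 h the medians were -0.31 and 0.02, with 92 member tiles (25.3%) lower against 16.4% of all and 29 (7.99%) higher against 18.4%, and these values rest on the ES library that stands apart on chromosome Y. For anti-MacroH2A2 the medians were -0.17 over 346 member tiles and 0.01 over 23453 tiles, and 30 member tiles (8.67%) were lower against 3.92% of all and 6 (1.73%) higher against 3.36%. In unique tiles 24 of 206 (11.7%) were lower against 4.46%. In tiles with no TSS the anti-MacroH2A2 median turned to 0.05 over 115 member tiles, against 0.14 over all tiles of that kind, and the HA-Macro median at 12 h was -0.13 over 117 against 0.05. The first 2 Mb lay below the rest of their own chromosome in 15 of 19 chromosomes in each of these 3 comparisons. At 12 h the 4 largest shortfalls were on chromosome 12 (median -0.54 against 0.00), 16 (-0.53 against 0.00), 8 (-0.63 against -0.13) and 9 (-0.60 against -0.11). Chromosomes 4, 10, 17 and 18 went the other way. In unique tiles the first 2 Mb lay below the rest on 14, 13 and 12 of 18 chromosomes for HA-Macro at 3 h and 12 h and anti-MacroH2A2. In tiles with no TSS they did so on 10, 10 and 9 of 14.

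**Figure D4:**
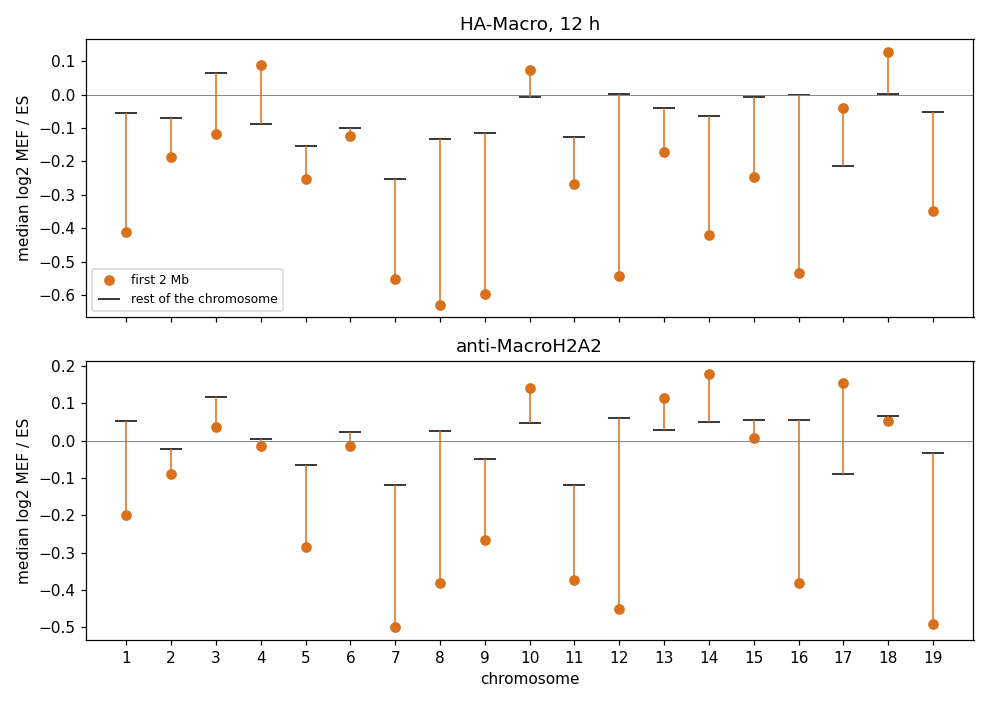
Median log2 ratio of MEF over ES cells for each autosome, HA-Macro at 12 h (top) and anti-MacroH2A2 (bottom). Dots are the kept tiles of the first 2 Mb and bars the rest of the chromosome, and 15 of 19 dots lie below their bar in each panel.

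Between times in ES cells, HA-Macro at 12 h over 3 h had a median log2 ratio of 0.03 in member tiles and 0.06 in all tiles, with 24 member tiles (6.61%) lower by 1.5-fold or more against 6.62% of all, and 2 (0.551%) higher against 3.12%. In unique tiles these medians were -0.03 and 0.07. From 6 h to 12 h the medians were -0.002 and 0.001, and 0 tiles passed 1.5-fold in either direction, against 0.0% of all tiles. In MEFs from 3 h to 12 h 0 member tiles passed it, also against 0.0%. At 3 h over no Dox, 40 member tiles (11.02%) were higher against 8.97% of all and 4 (1.10%) lower against 5.67%. The medians were -0.13 in members and -0.20 in all, and in unique tiles 0.11 and -0.11. This comparison rests on the 3 h library. For 6 h over no Dox the medians were -0.11 in members and -0.10 in all, and in unique tiles 0.01 and -0.02. For 12 h over no Dox they were -0.08 and -0.10, and in unique tiles 0.03 and 0.003. At 6 h over no Dox, 8 tiles (2.20%) were higher against 5.51% and 3 (0.826%) lower against 4.94%. At 12 h over no Dox, 8 (2.20%) were higher against 6.02% and 5 (1.38%) lower against 7.9%. HA-H3.3 at 6 h over 3 h had a median of -0.14 in 342 member tiles and -0.24 in all, with 16 tiles (4.68%) higher against 4.04% and 16 lower against 11.2%. In unique tiles these medians were 0.01 and -0.18.

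Single tiles show the range. Among kept tiles, the highest anti-MacroH2A2 level in both cell types was at chr11:4100001-4200000, with Gatsl3 and the cytokine genes Lif and Osm, of which Lif encodes the factor that sustains ES cells in culture. Its level in ppm was 91.4 in anti-MacroH2A2 ES and 79.6 in MEF, 52.4 in no Dox, 79.1, 86.2 and 87.7 in HA-Macro ES at 3 h, 6 h and 12 h, 102, 93.4 and 97.0 in HA-Macro MEF at 3 h, 6 h and 12 h, and 94.9 and 125 in HA-H3.3 at 3 h and 6 h. HA-Macro was thus high here in MEFs as well as in ES cells. The next highest kept tiles in ES cells were chr11:4600001-4700000 at 89.1, with the mitochondrial complex III subunit gene Uqcr10, Cabp7 and Zmat5, and chr19:4200001-4300000 at 86.8, with the DNA polymerase delta subunit gene Pold4, Clcf1, Rad9, Ssh3 and Ankrd13d.

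The lowest MEF over ES ratio of anti-MacroH2A2 was at chr12:3800001-3900000, which holds Dnmt3a, the gene of a de novo DNA methyltransferase. Its level was 73.5 ppm in anti-MacroH2A2 ES and 39.9 in MEF, a log2 ratio of -0.88. HA-Macro was 73.4, 72.8 and 66.7 in ES cells and 39.2, 43.4 and 39.6 in MEFs at 3 h, 6 h and 12 h, and the no-Dox level was 45.2. All 3 HA-Macro MEF libraries were below the no-Dox level of this tile and all 3 ES libraries above it, but no Dox was measured in ES cells only. Of all tiles, 9.75% were lower in HA-Macro MEF than ES by 1.5-fold or more at 12 h. HA-H3.3 was 92.1 and 115 in the Dnmt3a tile. Next lowest were chr16:4600001-4700000, with the mitochondrial import gene Pam16, the mitochondrial co-chaperone gene Dnaja3, Coro7 and Vasn (77.1 and 42.1), chr17:3400001-3500000, with no TSS (53.1 and 30.8), and chr16:4000001-4100000, with Dnase1, the DNA repair scaffold gene Slx4 and the mitochondrial chaperone gene Trap1 (55.4 and 32.8).

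The 4 highest ratios were in tiles with no protein-coding TSS, as was 1 of the 4 lowest, and 32.2% of all kept member tiles held no TSS of any kind. At chr5:4600001-4700000, with no TSS, anti-MacroH2A2 was 33.9 in ES cells and 63.2 in MEFs, a log2 ratio of 0.90. HA-Macro was 26.7, 27.6 and 27.3 in ES cells and 66.5, 61.4 and 66.6 in MEFs, and no Dox gave 38.4. This tile was picked by its anti-MacroH2A2 ratio. Of all tiles, 11.4% were higher in HA-Macro MEF than ES by 1.5-fold or more at 12 h and 18.4% at 3 h. The neighbouring tiles chr5:4400001-4500000 and chr5:4500001-4600000 also rank among the 4 highest anti-MacroH2A2 ratios. Since they adjoin, the 4 highest ratios do not stand for 4 separate places. By HA-H3.3 at 6 h the highest kept tile was chr7:4700001-4800000 at 158, with the ribosomal protein gene Rpl28, the ubiquitin-conjugating enzyme gene Ube2s, the cytokine gene Il11 and Cox6b2.

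In ES cells the tiles with the lowest HA-Macro at 12 h over 3 h were chr16:4100001-4200000, with no TSS (70.6 at 3 h, 36.3 at 6 h and 30.8 at 12 h), and chr17:3100001-3200000, with Scaf8 (69.3, 38.7 and 31.7). Next came chr1:4800001-4900000, with the transcription elongation factor gene Tcea1 (77.9, 40.8 and 36.5), and chr12:3400001-3500000, with the Polycomb-associated gene Asxl2 (78.9, 43.6 and 37.4). In each of these 4 the 6 h level was nearer to that at 12 h than to that at 3 h. The highest ratio was in chr7:4200001-4300000, with the natural killer cell receptor gene Ncr1 (37.6, 53.1 and 58.1), followed by chr17:4900001-5000000, with Arid1b, a gene of the BAF chromatin remodelling complex (40.3, 55.9 and 61.6).

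The 17 discarded tiles include the strongest signals of the first 2 Mb. At chr9:3000001-3100000, which holds the satellite block, the no-Dox library gave 2271 ppm. HA-Macro gave 1590.3, 1609 and 1535 in ES cells and 2086, 2033 and 1171 in MEFs at 3 h, 6 h and 12 h. HA-H3.3 gave 217 and 132, and the anti-MacroH2A2 level was 139 in ES cells against 89.8 in MEFs. In the no-Dox library the first 4 windows of 10 kb held 592, 572, 602 and 482 ppm and the other 6 held 3.05 to 4.82. Since distinct intervals were counted, the value is capped by the 10000 start positions of a window, of which no Dox filled 69.97% in the first, and the HA-Macro values of this tile therefore give no order of the libraries. With every interval counted, that window gave 5319 ppm in no Dox, 3526, 3889 and 3904 in HA-Macro ES and 3285, 2841 and 1967 in HA-Macro MEF at 3 h, 6 h and 12 h, and 56.8 in anti-MacroH2A2 ES. By that count no HA-Macro library with Dox reached the no-Dox level.

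At chr11:3000001-3100000, where Sfi1, a gene of a centrin-binding centrosome protein, has its start, signal was high in all libraries. It was 795 and 666 in HA-H3.3, 850 in anti-MacroH2A2 ES and 649.8 in MEF, 726 in no Dox, 675, 697 and 703 in HA-Macro ES and 511, 522 and 476 in HA-Macro MEF, which is 13.1 to 23.0 times the median tile. The no-Dox library alone was at 18.5 times. Of the sampled words of this tile, 74.96% are unique. Of the other discarded tiles, 3 each lie on chromosomes 14 and 16, 2 each on chromosomes 4 and 19, and 1 each on chromosomes 6, 12, 13, 17 and 18. Those on chromosome 19 at 3.9 and 4.1 Mb are gene-dense, with 8 and 9 protein-coding genes.

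**Figure D5:**
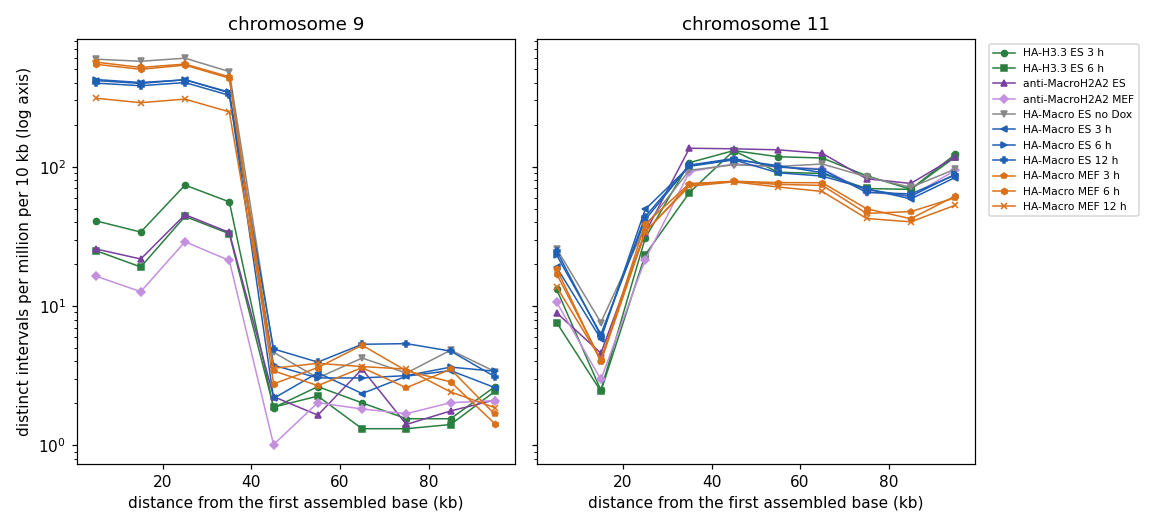
Distinct intervals per 1000000 in 10 kb windows (log axis) by distance from the first assembled base of chromosome 9 (left) and 11 (right), 1 line per library. On chromosome 9 the first window holds 592 in the no-Dox library against 25.6 in anti-MacroH2A2 ES, and on chromosome 11 all libraries hold 40.2 or more from 30 kb on.

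Promoters were counted within 600 bp of the TSS of the 429 protein-coding genes in kept tiles. Their mean over other promoters was 1.03 and 1.12 (1.10 to 1.14) for HA-H3.3 at 3 h and 6 h, 0.938 (0.908 to 0.968) for anti-MacroH2A2 ES and 0.862 (0.834 to 0.890) for anti-MacroH2A2 MEF. HA-Macro was 1.02, 1.02 and 0.994 in ES cells and 0.899, 0.917 and 0.899 in MEFs, with 0.995 for no Dox. Single promoters hold few intervals, with medians of 5 to 23 per library, and are therefore given with their counts.

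In ES cells, HA-Macro at 12 h over 3 h had a median log2 ratio of -0.75 over 307 member promoters with at least 20 intervals in the pair, and 178 (57.98%) were lower by 1.5-fold or more, against -0.68 and 54.6% of all promoters. Against 6 h the median was -0.37 and 100 of 297 (33.7%) were lower, against -0.30 and 31.1% of all. The lowest list medians were those of chromatin and transcription genes, with 7 of 10 lower and a median of -1.11, and of metabolism and housekeeping genes, with 7 of 9 and -1.04. Developmental and signalling genes had 5 of 13 lower and a median of -0.44, and fibroblast and imprinted genes had 1 of 6 and -0.13. The fibroblast and imprinted list counts Sgce and Peg10 separately, although their promoter windows overlap. Against 6 h the lists held 2 of 10, 3 of 7, 4 of 15 and 1 of 6 lower promoters, and the 3 h comparison rests on the library that stands apart on chromosome Y.

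Ewsr1, an RNA-binding protein gene, held 47 intervals at 3 h, 16 at 6 h and 14 at 12 h, a log2 ratio of -1.84 (-2.82 to -0.96). Mrpl15, of the mitochondrial ribosome, held 32, 15 and 10, a log2 ratio of -1.77 (-2.96 to -0.71). Crebbp, a histone acetyltransferase gene, held 39, 18 and 19, Suv39h2, a histone H3 lysine 9 methyltransferase gene that acts at pericentric heterochromatin, held 30, 14 and 15, and Gstp1, a glutathione transferase gene, held 25, 18 and 13. In contrast, Lif held 35, 26 and 36 intervals and Dnmt3a 24, 34 and 28. The Wnt co-receptor gene Lrp5 held 24, 33 and 25.

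In anti-MacroH2A2, the median log2 ratio of MEF over ES was -1.02 over 178 member promoters. Of these, 137 (77.0%) were lower by 1.5-fold or more, against -0.91 and 65.7% of all. These are ratios of library shares, and the study holds that scaling overstates the average promoter loss in MEFs. Insr, the insulin receptor gene, held 16 intervals in ES cells and 6 in MEFs, a log2 ratio of -2.22 (-3.86 to -0.79), and Nf2, a tumour suppressor gene, held 18 and 8. Lif held 17 and 36, a log2 ratio of 0.28 (-0.59 to 1.21) once scaled to the deeper MEF library, so that its interval spans no difference. HA-H3.3 at 6 h over 3 h was higher by 1.5-fold or more in 175 of 279 promoters (62.7%), against 56.0% of all. Tcea1 held 20 and 73 intervals at 3 h and 6 h, Lypla1 12 and 61, and Patz1, a zinc finger gene, 16 and 70. These counts are not scaled, and the HA-H3.3 libraries held 6448310 and 10646442 distinct intervals.

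The imprinted genes Sgce and Peg10 share a promoter and gave the highest anti-MacroH2A2 counts of the listed genes in ES cells, with 42 and 41 intervals, and held 36 each in MEFs, as did Lif. Their MEF over ES log2 ratios were -1.02 (-1.71 to -0.35) and -0.99 (-1.68 to -0.31). Their HA-Macro counts were 18, 23 and 18 (Sgce) and 23, 21 and 22 (Peg10) in ES cells and 15, 16 and 33 and 16, 17 and 35 in MEFs at 3 h, 6 h and 12 h, with 12 each in no Dox. These counts are not scaled for depth. The HA-Macro MEF library at 12 h held 19869559 distinct intervals, against 10810879 at 3 h and 10512728 at 6 h. The windows of both genes overlap, so that their counts are largely of the same intervals. The sequences upstream of 4 starts are printed 5′ to 3′ on the strand of the gene with CpG in capitals. They are examples of promoters whose HA-Macro count was lower at 12 h than at 3 h (Mrpl15 and Ube2s) or nearly the same (Lif and Peg10). Ube2s was taken from a named tile and not from the gene lists. All bases between the starts of Sgce and Peg10 lie at chr6:4697205-4697305, and 120 bases each lie upstream of Mrpl15 at chr1:4775821-4775940 on the minus strand, of Lif at chr11:4157440-4157559 on the plus strand and of Ube2s at chr7:4763943-4764062 on the minus strand. None overlaps an annotated exon.
Peg10: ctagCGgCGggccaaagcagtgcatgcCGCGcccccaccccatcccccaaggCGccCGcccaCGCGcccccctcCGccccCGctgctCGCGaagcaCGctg
Mrpl15: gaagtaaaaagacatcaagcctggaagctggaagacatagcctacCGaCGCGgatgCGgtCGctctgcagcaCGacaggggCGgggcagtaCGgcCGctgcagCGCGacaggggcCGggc
Lif: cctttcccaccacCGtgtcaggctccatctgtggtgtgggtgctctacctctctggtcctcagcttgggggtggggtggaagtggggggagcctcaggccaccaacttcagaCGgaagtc
Ube2s: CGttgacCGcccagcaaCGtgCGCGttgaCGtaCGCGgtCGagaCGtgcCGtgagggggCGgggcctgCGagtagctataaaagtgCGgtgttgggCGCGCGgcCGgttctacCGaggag
They hold 13, 12, 2 and 19 CpGs. Mrpl15 and Ube2s held 32 and 25 HA-Macro intervals at 3 h and 10 each at 12 h. Lif held 35 and 36 and Peg10 held 23 and 22. As examples of such counts, with stretches of unequal length, these 4 promoters cannot show whether the counts go with CpG number. The 3 h counts come from the ES library that stands apart on chromosome Y.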

How the data were processed

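The deposited files hold mapped intervals as chromosome, first and last base, with no strand, quality or count (unit: other). Per the labels and methods, the authors aligned reads to mm9 with Bowtie 1.0, allowed 1 mismatch, placed multiply mapping reads at 1 randomly chosen site and extended alignments, and the 400 bp length in 4 files is from the values. A difference in how multiply mapping reads were handled between the 400 bp and 150 bp libraries was not tested. Midpoints of distinct intervals were counted in 100 kb tiles and within 600 bp of each TSS of GENCODE vM1, on the NCBIM37 assembly (equal to mm9), and scaled per 1000000 distinct intervals on chromosomes 1 to 19, X and Y. Files held 6488112 to 20541627 intervals. The top 1% of no-Dox tiles and those with 0 no-Dox intervals were discarded. Log2 ratios needed 100 distinct intervals in the pair, promoters 20, and a call was 1.5-fold. Unique share used words of 32 bases sampled every 20 bases. Intervals of folds are Clopper-Pearson and those of promoter ratios exact. Tiles were named as the 4 highest and lowest by the level or ratio given, with all discarded tiles, and genes by fixed lists. The members, tiles and gene lists were chosen with earlier results of these data known. Tile calls were tested on simulated data. Python 3.11.15, numpy 2.4.6, pandas 2.3.3, scipy 1.17.1, numba 0.67.0 and matplotlib 3.10.9 were used. Alternatives were counting every interval, keeping the top 1% of tiles, other scalings and minima, leaving out chromosomes, and, added after seeing the data, tiles with at least 80% unique sequence, leaving out chromosome 14, including every tile, and tile ratios without TSS tiles.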

Additional observations from a re-analysis of the deposited data

Results flagged for a closer look

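HA-Macro in the first 2 Mb lay on opposite sides of the rest in the 2 cell types. All 3 ES libraries after Dox lay above the remaining tiles, the lowest at 1.02 times, and all 3 MEF libraries lay below them, the highest at 0.887 times. The difference was not tested, since the times are not independent replicates and 3 libraries against 3 cannot give a two-sided exact permutation p below 0.10. The no-Dox ES library, whose own signal decided which tiles were kept, was itself at 1.02. In ES cells the first 2 Mb lay above the rest on 9, 8 and 10 of 19 chromosomes at 3 h, 6 h and 12 h. In tiles with no TSS the ES libraries at 6 h and 12 h gave 0.982 and 0.992, and at 12 h division by no Dox gave 0.997. With the top 1% of tiles kept, but tiles with 0 no-Dox intervals left out, MEFs at 3 h and 6 h gave 1.05 and 1.06. At 12 h MEFs gave 0.981 and ES cells 1.18 under that setting. With every tile included, also those with 0 no-Dox intervals, all 3 MEF libraries lay above the rest, at 1.08, 1.09 and 1.01. The ES libraries were then at 1.26, 1.22 and 1.21 and no Dox at 1.27. That count includes the satellite tile chr9:3000001-3100000, at 2086, 2033 and 1171 ppm in MEFs at 3 h, 6 h and 12 h. The median MEF member tile stayed below that of the rest, at 32.4, 33.1 and 32.4 ppm against 35.4, 36.0 and 35.8. The opposite sides thus hold for the pooled mean of kept tiles. With the top 1% kept and tiles with 0 no-Dox intervals left out, they hold at 12 h only. With every tile included they do not hold.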

How the results depend on the processing

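Counting every interval left all 11 tile folds within their counting intervals, and gave medians of 0.0145 for HA-Macro ES 12 h over 3 h and -0.315 for HA-Macro MEF over ES at 12 h. With the top 1% of tiles kept, but tiles with 0 no-Dox intervals still left out, the folds were 1.04 (HA-H3.3 ES 6 h), 0.968 (anti-MacroH2A2 ES), 0.863 (anti-MacroH2A2 MEF), 1.23 (no Dox), 1.18 (HA-Macro ES 12 h) and 0.981 (HA-Macro MEF 12 h), HA-Macro MEF at 3 h and 6 h turned to 1.05 and 1.06, and, with no tiles discarded, medians were -0.367 for HA-Macro MEF over ES and -0.193 for anti-MacroH2A2. With every tile included the folds were, in that order, 1.07, 0.997, 0.889, 1.27, 1.21 and 1.01, and HA-H3.3 3 h and HA-Macro MEF 3 h, 6 h and 12 h turned above 1, to 1.03, 1.08, 1.09 and 1.01. The satellite tile of chromosome 9 is included in both. The median tile gave, in the same order, 1.03, 0.94, 0.845, 1.01, 1.03 and 0.87. Dividing each tile by no Dox gave 0.985, 0.889, 0.804, 0.997 for HA-Macro ES 12 h and 0.856, and turned HA-H3.3 at 6 h and HA-Macro ES 12 h below 1. A no-Dox level within 0.5 to 1.5 times the median gave 0.999, 0.902 and 0.814 for the 400 bp libraries. Leaving out the chromosome that moved the fold most gave 0.962 (HA-H3.3 6 h, chromosome 7), 0.947 and 0.857 (anti-MacroH2A2, chromosome 14), 1.02 (no Dox, 12), 1.00 (HA-Macro ES 12 h, 11) and 0.894 (HA-Macro MEF 12 h, 9). Tiles with no TSS gave 0.902, 0.881, 0.84, 0.99, 0.992 and 0.889, and 0.982 for HA-Macro ES 6 h. Tiles with at least 80% unique sequence gave 1.2, 1.03, 0.918, 1.04, 1.06 and 0.924, and turned HA-H3.3 3 h to 1.10. Leaving out chromosome 14 gave 1.05, 0.947, 0.857 and 0.879 for HA-Macro MEF 12 h.

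For HA-Macro ES 12 h over 3 h the median was 0.0225 when scaled to the remaining tiles, 0.0122 without chromosome 17, -0.0336 in unique tiles and -0.0698 with summed counts, so its sign was not settled. In tiles with no TSS the median was 0.0998 for HA-Macro ES 12 h over 3 h, -0.13 for HA-Macro MEF over ES at 12 h and, turned above 0, 0.0467 for anti-MacroH2A2, with 5, 19 and 3 lower tiles. For HA-Macro MEF over ES at 12 h it was -0.368 with that scaling, -0.29 in unique tiles, -0.209 with summed counts and -0.33 without chromosome 8. For anti-MacroH2A2 it was -0.191 in unique tiles, -0.157 with summed counts and -0.144 without chromosome 12. At 2-fold, 4 member tiles were lower for HA-Macro ES 12 h against 3 h, 4 for HA-Macro MEF against ES and 0 for anti-MacroH2A2. Unique tiles held 35 lower tiles for HA-Macro MEF against ES at 12 h. Other medians that turned were HA-Macro ES 3 h over no Dox (0.108 in unique tiles, 0.0698 summed), 6 h over no Dox (0.0137 and 0.00807), 12 h over no Dox (0.0327 in unique tiles) and HA-H3.3 6 h over 3 h (0.0102 in unique tiles, 0.0864 summed). Medians within 0.01 of 0, HA-Macro ES 12 h over 6 h and MEF 12 h over 3 h, also turned, to at most 0.0454 and 0.0255. The cause of these changes was not tested. The labels give no replicate numbers, so no replicate block was fitted. Matched by time point, MEF was below ES in 3 of 3 HA-Macro pairs, in kept and in unique tiles. These pairs are not independent, and an exact permutation within 3 pairs cannot give a two-sided p below 0.25. Depth limits single promoters most, and duplicated tiles hold few intervals in the 400 bp libraries.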
